A study of Mus musculus with 19 samples.

Results

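Cdon, Boc, Gas1 and Lrp2 encode the cell-surface co-receptors that help cells capture Hedgehog ligands, and they are described here across all 19 libraries of the series. The members were the rows of the deposited expression table with these 4 gene symbols, 4 of 47643 genes in all. The libraries came from mouse embryonic cortex at E14.5 (embryonic day), dissected as dorsal or medial cortex. The mutants were GFAP::Cre; SmoM2 embryos: a Cre recombinase under the GFAP promoter switches on SmoM2, a constantly active form of Smoothened. Control embryos were wildtype, so the groups differ by both the Cre and the SmoM2 allele. There were 4 mutant dorsal, 6 control dorsal, 4 mutant medial and 5 control medial libraries. Each value is in TPM, a transcript level divided by transcript length that sums to 1000000 in each library. The GFAP promoter is used in radial glia, the stem cells of the cortex, and the share of cells in which the allele was switched on was not measured.

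Hedgehog ligands bind Patched receptors at the cell surface, which releases Smoothened and lets Gli factors turn on target genes such as Gli1, Ptch1 and Hhip. Cdon and Boc are related membrane proteins with immunoglobulin and fibronectin domains, Gas1 is a lipid-anchored surface protein related to the GDNF family receptors, and Lrp2 (megalin) is a very large endocytic receptor of the LDL receptor family. Cdon, Boc and Gas1 bind ligand together with Ptch1 and raise the response to it. In other tissues of the mouse embryo, such as the spinal cord, their transcription is known to be lowered by Hedgehog signalling. SmoM2 acts downstream of ligand, Patched and all 4 co-receptors.

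The members lie on 4 chromosomes of GRCm38 in the GENCODE M21 annotation, and all are protein-coding. Cdon (ENSMUSG00000038119.15) spans chr9:35421128-35507652 on the plus strand. Boc (ENSMUSG00000022687.12) spans chr16:44485049-44558897, Gas1 (ENSMUSG00000052957.8) chr13:60174405-60177365 and Lrp2 (ENSMUSG00000027070.14) chr2:69424340-69586065, all on the minus strand. The lincRNA Gm48488 overlaps the 5′ end of Gas1 on the opposite strand, at chr13:60176682-60182862, and has no row of its own in the deposited table. The library kit keeps strand, but whether the counting used it is not given in the sources used here, so reads of this pair cannot be told apart. The start-site windows of 3 members were taken from RefSeq (GRCm38.p6), 250 bases before to 50 bases after the start, as a description of these starts. Whether they bear on the response of the members was not tested. Boc had no entry in that table. They are written 5′ to 3′ along each gene's strand, with capitals on matches to the GC box GGGCGG or the CCAAT box, searched on both strands.
Cdon, chr9:35451826-35452125, plus strand: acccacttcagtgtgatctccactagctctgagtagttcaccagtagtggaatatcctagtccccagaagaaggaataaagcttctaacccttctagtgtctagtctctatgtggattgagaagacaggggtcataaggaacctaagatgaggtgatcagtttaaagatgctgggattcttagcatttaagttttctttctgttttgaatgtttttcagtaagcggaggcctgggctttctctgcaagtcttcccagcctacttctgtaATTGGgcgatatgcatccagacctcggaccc
Gas1, chr13:60177486-60177785, minus strand: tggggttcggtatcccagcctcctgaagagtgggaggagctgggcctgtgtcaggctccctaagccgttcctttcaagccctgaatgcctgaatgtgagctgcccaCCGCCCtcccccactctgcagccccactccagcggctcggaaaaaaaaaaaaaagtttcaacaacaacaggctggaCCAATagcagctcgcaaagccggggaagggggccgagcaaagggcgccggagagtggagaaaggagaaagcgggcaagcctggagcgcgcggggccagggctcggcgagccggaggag
Lrp2, chr2:69585980-69586279, minus strand: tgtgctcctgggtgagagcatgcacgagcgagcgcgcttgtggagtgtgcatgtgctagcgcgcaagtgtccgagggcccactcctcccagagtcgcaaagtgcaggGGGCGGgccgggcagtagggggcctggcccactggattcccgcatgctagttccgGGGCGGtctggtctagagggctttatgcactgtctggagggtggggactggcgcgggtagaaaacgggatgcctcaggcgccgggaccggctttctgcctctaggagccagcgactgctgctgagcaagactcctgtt
The Gas1 and Lrp2 windows were rich in G and C, with 62.3% and 65.0% GC and 17 and 20 CpG sites, against medians of 52.7% and 7 over all windows. The Cdon window had 44.7% GC and 3 CpG sites. It belongs to a start 30948 bases downstream of the first base of the gene in GENCODE, and 4 of the 6 GENCODE transcripts of Cdon start upstream of it, so it shows only one of the starts of the gene. The CCAAT box had 1 match in the Cdon window, on the reverse strand, and 1 in the Gas1 window. The GC box had 1 match in the Gas1 window, on the reverse strand, and 2 in the Lrp2 window. These boxes were present in 37.4% and 35.7% of the 32851 mouse windows. The Gli consensus GACCACCCA, found in 0.253% of windows, had no match in these 3, nor had TATAAA (13.6%) or the E-box CACGTG (7.15%).

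The labels were checked on genes that respond to Smoothened. Gli1, the transcriptional target and effector of the pathway, averaged 35.0 ± 5.44 TPM in mutant dorsal and 0.586 ± 0.268 TPM in control dorsal libraries, and 37.2 ± 9.94 TPM in mutant medial and 0.398 ± 0.135 TPM in control medial libraries (SD, n = 4, 6, 4 and 5 in this order throughout). Of 10 neuron marker genes 9 fell in mutants in each region, and 4 in dorsal and 8 in medial cortex after median-ratio rescaling. Their summed level ran from 3490 to 5130 TPM in mutant dorsal and 5450 to 6160 TPM in control dorsal libraries, and from 2510 to 3230 TPM in mutant medial and 3700 to 4760 TPM in control medial libraries. The summed level of 12 radial glia markers ran from 2720 to 2950 TPM in mutant dorsal and 2690 to 3040 TPM in control dorsal libraries, with 6 members higher and 3 lower in mutants. In medial cortex it ran from 3200 to 3550 TPM in mutants and 3320 to 4090 TPM in controls, with 3 members higher and 2 lower. None of these markers was at 0 in all libraries of a group. Mutant dorsal library 3 stood apart within its group, with the lowest neuron sum of the dorsal libraries, and medial libraries differed widely in markers of the cortical hem, the signalling edge of the medial cortex.

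Cdon fell in the mutants in both regions, and in the fit over all genes it was the only one of the 3 tested members to pass the threshold between genotypes. Its level was 88.8, 85.1, 113 and 88.2 TPM in mutant dorsal libraries 1 to 4, against 153, 133, 143, 137, 157 and 139 TPM in control dorsal libraries 1 to 6. In medial cortex it was 117, 125, 130 and 121 TPM in mutant libraries 1 to 4, against 203, 188, 178, 196 and 212 TPM in control libraries 2 to 6. Every mutant library lay below every control library of its region, mutant dorsal library 3 included, as was so for 17.6% of the 13520 tested genes in dorsal and 22.7% in medial cortex. The means were 93.7 ± 12.9 TPM in mutant dorsal and 144 ± 9.34 TPM in control dorsal libraries, and 123 ± 5.36 TPM in mutant medial and 195 ± 13.2 TPM in control medial libraries.

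On the log2(TPM + 1) scale Cdon changed by -0.62 ± 0.07 in dorsal cortex (SE; 95% interval -0.77 to -0.47; limma adjusted p = 2.51e-06), a level 0.651 times that of controls. In medial cortex it changed by -0.66 ± 0.07 (interval -0.81 to -0.51; adjusted p = 2.58e-06), or 0.633 times. Genes that fell were common in this series: at an adjusted p below 0.05, 27.6% of the tested genes were lower and 9.93% higher in dorsal mutant cortex, and 30.2% were lower and 9.44% higher in medial mutant cortex. In numbers this was 1343 genes higher and 3727 lower in dorsal, and 1276 higher and 4081 lower in medial cortex. After median-ratio rescaling the split was 2079 higher and 1998 lower in dorsal and 2138 higher and 2341 lower in medial cortex. Cdon therefore did not stand out by passing the test, but by size: 392 tested genes (2.9%) fell further in dorsal and 609 (4.5%) in medial cortex. The median of all tested genes moved by -0.10 in dorsal and -0.11 in medial cortex, and relative to it Cdon changed by -0.52 and -0.55. The mutant effect on Cdon differed between medial and dorsal cortex by -0.04 ± 0.10 (interval -0.25 to 0.17; adjusted p = 1, with 1 gene or 0.0074% of tested genes called, and 49 genes with same-numbered libraries as a random block), so a difference in effect of the size of that interval cannot be told from none. Between genotypes the neuron markers moved in the same direction as Cdon. Between regions they did not, as the neuron sum was lower and Cdon higher in medial cortex. Mutant dorsal library 3 had the lowest neuron sum of its group, 3490 TPM, and the highest Cdon, 113 TPM. Other marker sums also lay apart between genotypes. The sum of 8 ventral progenitor markers was 25.7 to 39.4 TPM in mutant dorsal and 18.0 to 22.6 TPM in control dorsal libraries, and 38.0 to 40.1 TPM in mutant medial and 15.3 to 17.0 TPM in control medial libraries. Of 6 tested, 2 were higher in dorsal mutants, and 1 was higher and 1 lower in medial mutants. The sum of 8 pericyte markers was 49.4 to 69.3 TPM in mutant dorsal and 72.9 to 88.7 TPM in control dorsal libraries, and of 7 tested 3 were lower. In medial cortex the pericyte sums overlapped. The hem sum of dorsal libraries was also lower in mutants, at 44.7 to 53.7 TPM against 73.9 to 86.7 TPM in controls. Of 9 tested hem markers only 1 was lower and 0 were higher there, with a median of 0.04 against -0.10 for all tested genes. The lower sum was therefore not a fall shared by the list. The part of these markers in the fall of Cdon was not tested. In these bulk samples fewer cells of a type and less RNA per cell cannot be told apart.

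**Figure D1:**
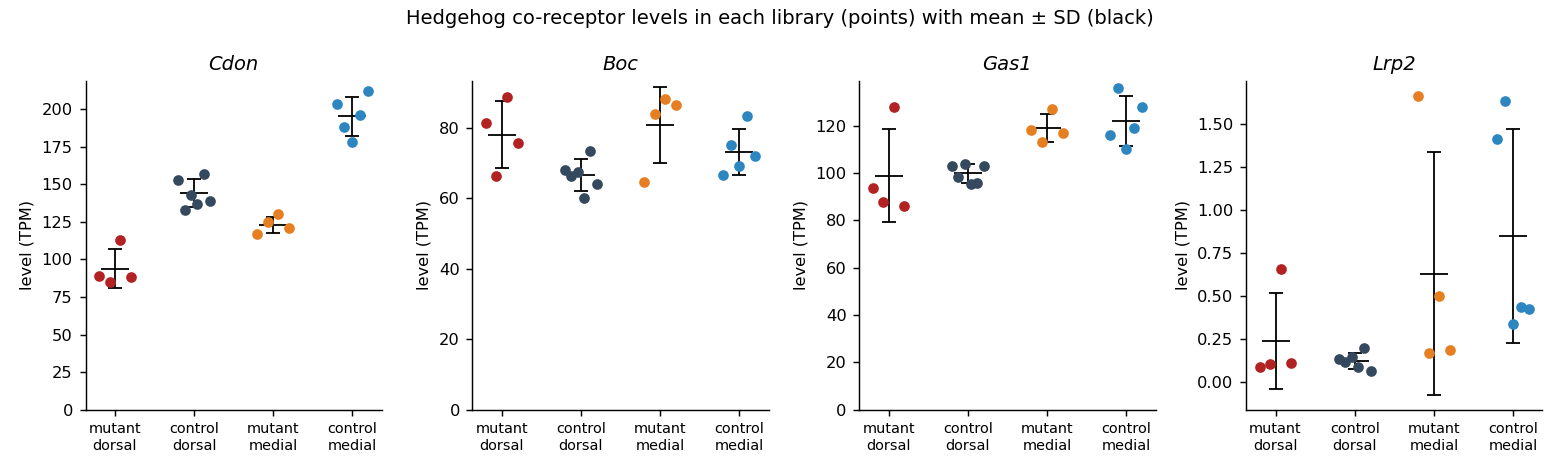
Level of Cdon, Boc, Gas1 and Lrp2 (vertical axes, TPM, each with its own scale) in each library of the mutant dorsal, control dorsal, mutant medial and control medial groups; points are libraries and black bars are mean ± SD (n = 4, 6, 4 and 5). The 4 groups of Cdon do not overlap, those of Boc overlap throughout, Gas1 is higher in medial than in dorsal controls, and Lrp2 stays below 1.7 TPM with a wide spread in medial libraries.

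Boc, which also serves as a receptor for Hedgehog in axon guidance, did not pass the test between genotypes. Its mean was higher in mutants in both regions. Boc was at 81.5, 66.3, 88.8 and 75.6 TPM in mutant dorsal libraries, against 67.9, 66.4, 67.5, 60.1, 73.5 and 64.2 TPM in control dorsal libraries. In medial cortex it was at 64.7, 83.9, 88.2 and 86.4 TPM in mutants, against 66.6, 75.0, 69.1, 83.4 and 72.1 TPM in controls. The groups overlapped in both regions: mutant dorsal library 2 and mutant medial library 1 lay among or below the controls. The log2 difference was 0.22 ± 0.09 in dorsal cortex (interval 0.03 to 0.41; limma adjusted p = 0.0596) and 0.13 ± 0.09 in medial cortex (interval -0.06 to 0.33; adjusted p = 0.266). The dorsal call rests on the scaling and on single libraries: it passed after median-ratio rescaling (0.31, adjusted p = 0.0122). It also passed without mutant dorsal library 2 (0.29, adjusted p = 0.0161), without control dorsal library 5 (0.25, adjusted p = 0.0438) and without mutant medial library 1 (0.22, adjusted p = 0.0248). The medial value passed without mutant medial library 1 (0.24, adjusted p = 0.0325). With sex as a term both values were smaller, 0.17 in dorsal and 0.07 in medial cortex, and neither passed. The difference between the regional effects was -0.09 ± 0.13 (interval -0.36 to 0.18).

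Gas1, which binds Hedgehog ligands and was first found in growth-arrested cells, was close in level between genotypes. It was at 93.5, 87.9, 128 and 86.1 TPM in mutant dorsal libraries, against 103, 98.2, 104, 95.2, 95.7 and 103 TPM in control dorsal libraries. In medial cortex it was at 118, 113, 127 and 117 TPM in mutants, against 116, 136, 110, 119 and 128 TPM in controls. In dorsal cortex 3 of 4 mutant libraries lay below all 6 controls and mutant dorsal library 3 lay above all of them. In medial cortex the mutant values lay within the control range. The log2 difference was -0.03 ± 0.09 in dorsal cortex (interval -0.21 to 0.15; limma adjusted p = 0.807) and -0.03 ± 0.09 in medial cortex (interval -0.22 to 0.15; adjusted p = 0.793). These intervals exclude a fall of the size seen for Cdon in either region. Without mutant dorsal library 3 the dorsal difference was -0.16 ± 0.06 and passed the test (adjusted p = 0.046). With median-ratio rescaling its sign turned, to 0.06 in dorsal and 0.07 in medial cortex, neither past the threshold.

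Among the 3 abundant members, the regional differences were carried by Cdon and Gas1. Cdon was higher in medial than in dorsal cortex by 0.40 ± 0.08 log2 units in mutants (limma adjusted p = 0.00356) and by 0.44 ± 0.07 in controls (adjusted p = 0.000129). Gas1 was higher in medial cortex by 0.28 ± 0.09 in mutants (adjusted p = 0.0422) and by 0.28 ± 0.08 in controls (adjusted p = 0.0112). Boc differed by 0.05 ± 0.10 in mutants (interval -0.16 to 0.25; adjusted p = 0.795) and 0.13 ± 0.08 in controls (interval -0.04 to 0.31; adjusted p = 0.245). Of all tested genes 8.03% were higher in medial than in dorsal mutant cortex and 17.6% in control cortex, and in 7.11% and 11.1% every medial library lay above every dorsal library. That separation held for Cdon in both genotypes and for Gas1 in controls alone. With same-numbered libraries as a random block, 5283 genes in mutants and 6614 in controls passed in either direction, against 2545 and 4387 without it, and the calls of Cdon, Boc and Gas1 did not change. The mutant call of Gas1 was lost without mutant dorsal library 1, 2 or 4, mutant medial library 1, 3 or 4, or control dorsal library 2 (0.22 to 0.29, adjusted p from 0.0502 to 0.158). These fits did not treat same-numbered libraries as a block, and leaving out single libraries was not run with that block. When only the mutant libraries entered the fit, the limma adjusted p was 0.0569 for Cdon and 0.161 for Gas1. That fit called 0 of 13519 genes, with 3643 at an unadjusted p below 0.05, so the miss is not particular to these members. Without the 3 medial libraries highest in hem markers, Gas1 missed the threshold in mutants (adjusted p = 0.0795) and in controls (0.25, adjusted p = 0.0895). The radial glia sum was also higher in medial than in dorsal libraries and the neuron sum lower, and their part in these differences was not tested.

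The order of Cdon was control medial, control dorsal, mutant medial, mutant dorsal, with no overlap between neighbours. All 4 groups were mutually apart in 31 of the 13520 tested genes (0.229%). For Gas1 the order was control medial, mutant medial, control dorsal, mutant dorsal, and only mutant medial and control dorsal did not overlap as neighbours. For Boc the order was mutant medial, mutant dorsal, control medial, control dorsal, and every neighbouring pair overlapped.

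**Figure D2:**
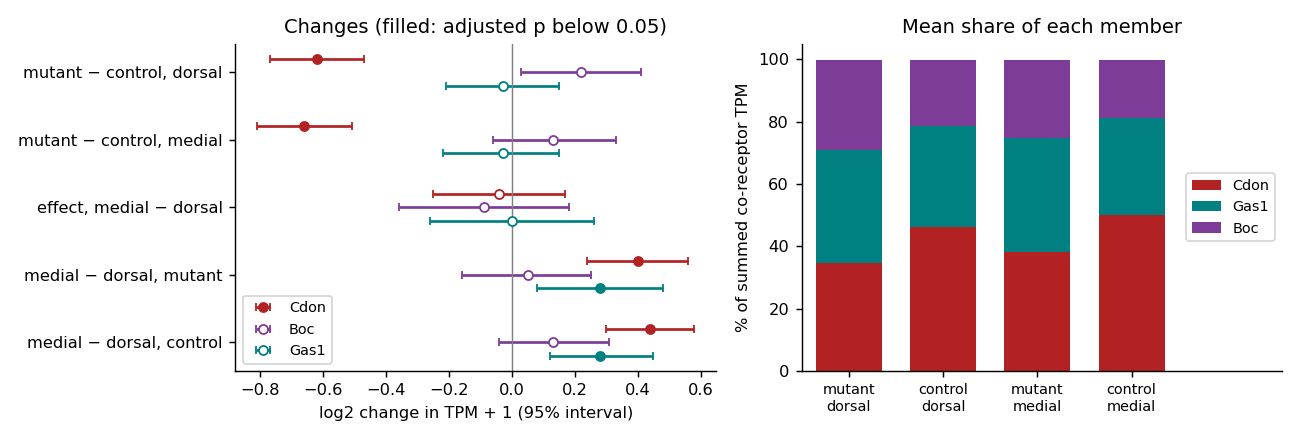
Left, log2 change in TPM + 1 of Cdon, Boc and Gas1 (horizontal axis) in each comparison, with 95% intervals and filled points where the adjusted p is below 0.05; right, mean percentage of the summed co-receptor TPM taken by each of these members in the mutant dorsal, control dorsal, mutant medial and control medial groups (bars from 0). Cdon lies at -0.62 and -0.66 in mutant against control and holds 34.6%, 46.3%, 38.1% and 49.9% of the sum in that group order.

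Because TPM is a level per length, the members could be set against each other. The 4 co-receptors together summed to 271 ± 40.8 TPM in mutant dorsal and 310.0 ± 13.8 TPM in control dorsal libraries, and to 324 ± 18.0 TPM in mutant medial and 391 ± 21.3 TPM in control medial libraries. Cdon made up 34.6 ± 0.904% of this sum in mutant dorsal and 46.3 ± 1.26% in control dorsal libraries. In medial cortex its share was 38.1 ± 0.876% in mutants and 49.9 ± 2.13% in controls. Mutant and control shares did not overlap in either region, and the spread of the share was narrow: mutant dorsal library 3, high in Cdon, Boc and Gas1 alike, had a share of Cdon within 33.6 to 35.5% like its group. Gas1 was the largest part in mutant dorsal cortex on average, with 36.3 ± 1.86%, against 32.2 ± 1.53% in control dorsal cortex. The ratio of Cdon to Boc ranged from 1.09 to 1.28 in mutant dorsal and from 2.01 to 2.28 in control dorsal libraries, and from 1.4 to 1.81 in mutant medial and from 2.36 to 3.06 in control medial libraries. These shares and ratios are descriptions and were not tested, and within a library they do not depend on how libraries are scaled.

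Ptch1, the receptor that Cdon, Boc and Gas1 assist and a direct Gli target, rose by 3.18 ± 0.11 log2 units in dorsal and 3.45 ± 0.11 in medial mutant cortex (limma adjusted p = 4.58e-13 and 4.25e-13). Cdon stood at 1.25 to 1.84 times the level of Ptch1 in mutant dorsal libraries, against 22.3 to 26.8 times in control dorsal libraries. In medial cortex the ratio was 1.81 to 2.29 in mutants and 41.1 to 45.5 in controls. Most of this shift came from Ptch1, which averaged 62.6 ± 10.2 TPM in mutant dorsal and 5.98 ± 0.676 TPM in control dorsal libraries. Smo, the transducer whose active form the mutants carry, averaged 130 ± 20.8 TPM in mutant dorsal and 83.8 ± 6.72 TPM in control dorsal libraries (log2 difference 0.61 ± 0.09, adjusted p = 4.12e-05). In medial cortex Smo averaged 170 ± 10.5 TPM in mutants and 122 ± 11.8 TPM in controls (0.47 ± 0.09, adjusted p = 0.000617). Reads of the SmoM2 allele and of the resident gene are not separated in this table.

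**Figure D3:**
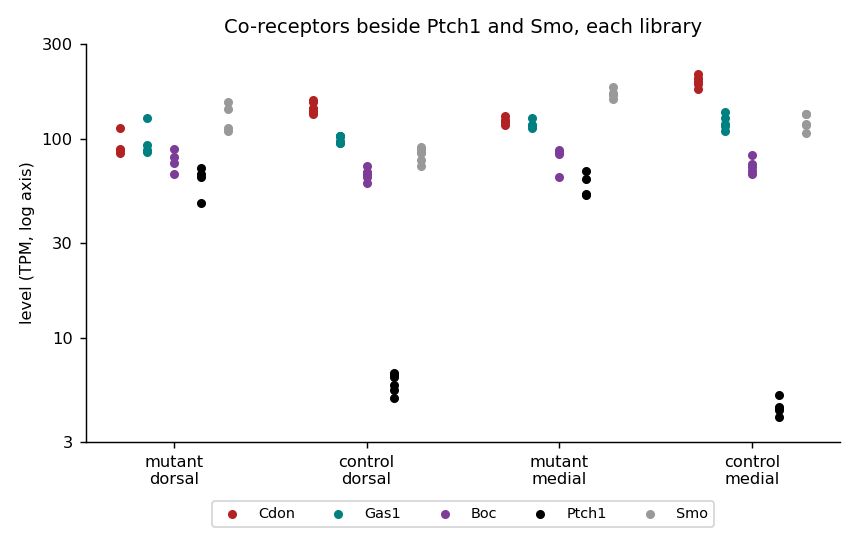
Level in TPM (log axis) of Cdon, Gas1, Boc, Ptch1 and Smo in each library (points) of the mutant dorsal, control dorsal, mutant medial and control medial groups. Ptch1 lies near the co-receptors in mutants and far below them in controls.

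Lrp2 was nearly silent in most libraries. Its level was 0.0860, 0.101, 0.656 and 0.111 TPM in mutant dorsal libraries 1 to 4, against 0.132, 0.115, 0.147, 0.0851, 0.195 and 0.0622 TPM in control dorsal libraries 1 to 6. In medial cortex it was 1.66, 0.170, 0.499 and 0.185 TPM in mutant libraries 1 to 4, against 1.41, 1.63, 0.335, 0.434 and 0.424 TPM in control libraries 2 to 6. Only mutant medial library 1 and control medial libraries 2 and 3 exceeded 1 TPM. Mutant and control libraries overlapped in both regions, while every control medial library lay above every control dorsal library, as in 11.1% of the tested genes.

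Lrp2 missed the filter of 1 TPM in 4 libraries, so its group means were compared by two-sided exact permutation tests, adjusted over 4 comparisons, with limma on unfiltered data beside them. Mutants differed from controls by 0.116 TPM in dorsal cortex (exact p = 0.619; adjusted p = 0.619) and by -0.218 TPM in medial cortex (exact p = 0.571; adjusted p = 0.619). Without mutant dorsal library 3 the dorsal difference was -0.0234 TPM. Medial exceeded dorsal control libraries by 0.723 TPM (exact p = 0.00433, the smallest these group sizes allow; adjusted p = 0.0173), and unfiltered limma gave 0.66 ± 0.21 log2 units (adjusted p = 0.0385). In mutants the medial minus dorsal difference was 0.39 TPM (exact p = 0.4; adjusted p = 0.619). When labels were exchanged within the 5 control pairs of the same number, the difference was 0.725 TPM with an exact p of 0.0625, the smallest that 5 pairs allow.

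The 3 libraries above 1 TPM of Lrp2 had the highest sums of cortical hem markers. The summed level of 12 hem markers was 215, 42.3, 42.9 and 45.9 TPM in mutant medial libraries 1 to 4, against 242, 221, 89.0, 61.0 and 133 TPM in control medial libraries 2 to 6. It ran from 44.7 to 53.7 TPM in mutant dorsal and from 73.9 to 86.7 TPM in control dorsal libraries. Of the 9 tested hem markers 8 were higher in medial than in dorsal control cortex, and several of the 12, Wnt3a among them, were at 0 in single libraries. Without the 3 libraries with the highest hem sums, a choice made after seeing the data, Lrp2 in controls was higher in medial cortex by 0.275 TPM (exact p = 0.0238; adjusted p = 0.0952). That p is the smallest these group sizes allow. Beside exact p-values of 0.4 to 0.8 in the other comparisons it could not pass after adjustment. Mutant dorsal library 3, with 0.656 TPM of Lrp2, had the lowest hem sum of its group, 44.7 TPM. None of the 12 markers was at 0 in that library, while Wnt3a was at 0 in the other mutant dorsal libraries. Mutant medial library 3 and control medial library 5, with 0.499 and 0.434 TPM of Lrp2, had hem sums of 42.9 and 61.0 TPM, below every control dorsal library. In control dorsal libraries Wnt3a, Wnt8b, Lmx1a and Rspo2 averaged only 0.0283, 0.0541, 0.253 and 0.432 TPM. Other markers of the list thus made up most of the sum there, and a low sum does not by itself show less hem tissue. Single hem markers did not all follow the sum. Lmx1a was at least 0.664 TPM and Wnt8b at least 0.352 TPM in every control medial library. In control dorsal libraries they reached at most 0.361 and 0.147 TPM. Wnt3a and Rspo2 overlapped between these 2 groups. Choroid plexus markers, 10 in all, were highest in control medial library 4 at 1010 TPM summed, where Lrp2 was 0.335 TPM. Mutant medial library 3 had the next highest choroid plexus sum, 179 TPM, and the highest sum of 12 meninges and mesenchyme markers, 94.0 TPM. The meninges sum ran from 13.6 to 47.9 TPM in the other mutant medial and from 25.5 to 47.5 TPM in control medial libraries. How far tissue taken along at the medial edge accounts for the Lrp2 values was not tested.

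**Figure D4:**
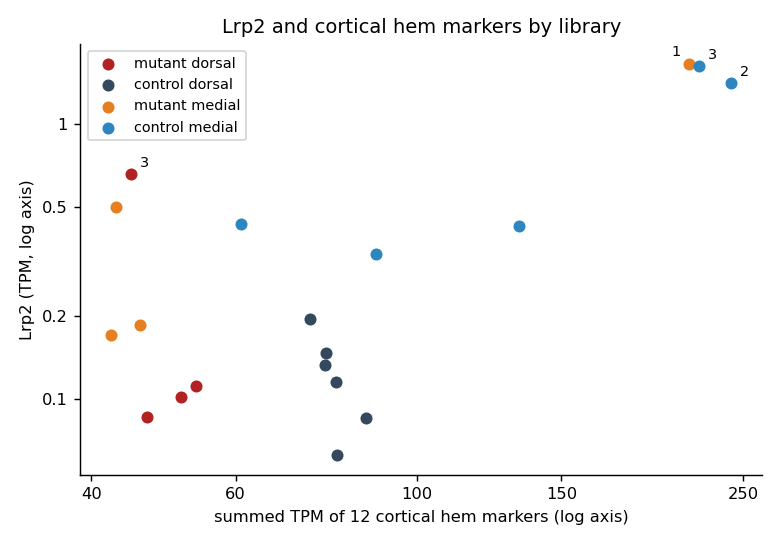
Lrp2 level (vertical, TPM, log axis) against the summed TPM of 12 cortical hem markers (horizontal, log axis) in each library, coloured by group; numbers mark mutant medial library 1, control medial libraries 2 and 3 and mutant dorsal library 3. The 3 libraries above 1 TPM of Lrp2 have the highest hem sums, 215 to 242 TPM.

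The counts in the pathway lists are to be read against all tested genes, of which 9.93% were higher and 27.6% lower in dorsal and 9.44% higher and 30.2% lower in medial mutant cortex. Of 9 genes for ligands and their release 5 were tested, of which 0 were higher and 1 lower in mutant dorsal cortex and 0 higher and 3 lower in mutant medial cortex (median -0.40 and -0.50, against -0.10 and -0.11 for all tested genes). The dorsal count is below the share of all tested genes that fell. Scube3, a secreted protein that helps release ligand, fell by 0.76 ± 0.12 log2 units in dorsal and by 0.84 ± 0.13 in medial cortex (limma adjusted p = 0.000116 and 6.80e-05). Scube1 and Disp2, the first also a secreted relative and the second a Dispatched-family gene, fell in medial cortex by 0.65 ± 0.19 and 0.50 ± 0.17 (adjusted p = 0.0128 and 0.0272), and after quantile normalization neither passed. Disp2 also missed the threshold after median-ratio rescaling (-0.42, adjusted p = 0.0595), with title number as a block (-0.38, adjusted p = 0.0931) and without the 3 medial libraries highest in hem markers (-0.53, adjusted p = 0.0601). Scube1 also missed the threshold without mutant medial library 1 or 3 (-0.53 and -0.54), and Disp2 without mutant medial library 1, 2 or 3 or control medial library 6 (-0.49 to -0.39). Shh itself averaged 0.0230 TPM in mutant dorsal, 0.0395 TPM in control dorsal, 0.0675 TPM in mutant medial and 0.0619 TPM in control medial libraries.

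Among the ligand-binding receptors and antagonists, Ptch1 rose in both regions, as did the ligand-trapping Hhip (4.79 ± 0.18 in dorsal and 4.03 ± 0.19 in medial cortex). Cdon thus fell in the libraries in which Ptch1 and Hhip rose. Of 5 tested glypicans, heparan sulfate carriers at the cell surface, 1 was higher and 3 lower in dorsal, and 1 higher and 2 lower in medial mutant cortex (median -0.27 and -0.10). Gpc3, which competes with Patched for ligand, rose by 0.99 ± 0.23 and 1.71 ± 0.24. Gpc1 and Gpc2 changed by -0.27 ± 0.06 and -0.38 ± 0.11 in dorsal and by -0.21 ± 0.06 and -0.50 ± 0.11 in medial cortex, where Gpc1 missed the threshold after median-ratio rescaling (adjusted p = 0.187) and without mutant medial library 1 (-0.16). Of 17 tested transducers 4 were higher and 4 lower in dorsal and 5 higher and 4 lower in medial cortex (median -0.05 in both), the lower counts being near the share of all tested genes, with Gli1 at 4.51 ± 0.16 and 4.74 ± 0.16 and Gpr161, a ciliary receptor that holds the pathway back, at -0.32 ± 0.06 and -0.45 ± 0.06.

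Several genes of the structural class of Cdon also fell. Of 8 tested relatives of Cdon and Boc, 1 was higher and 5 were lower in each region, with a median of -0.52 in dorsal and -0.47 in medial cortex, against -0.10 and -0.11 for all tested genes. Igdcc4, an immunoglobulin superfamily member, fell by 0.67 ± 0.08 and 0.64 ± 0.08 (limma adjusted p = 3.23e-06 and 1.09e-05). The axon guidance receptors Robo1 and Dcc fell by 0.89 ± 0.15 and 0.81 ± 0.14 in dorsal cortex and by 0.89 ± 0.16 and 0.85 ± 0.15 in medial cortex. Of 8 tested partners of Cdon and Boc, 1 was higher and 4 were lower in each region (median -0.16 in both). Neo1, a netrin receptor that pairs with Cdon in mouse muscle cells, changed by -0.35 ± 0.08 and -0.42 ± 0.08, Cdh2 (N-cadherin) by -0.27 ± 0.04 and -0.24 ± 0.05, and Ctnnb1 (beta-catenin) by 0.37 ± 0.05 and 0.32 ± 0.05. Robo1, Dcc and Neo1 are also expressed in young neurons, whose markers fell in the same libraries, and this was not tested.

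Of 3 tested relatives of Gas1, all GDNF family receptors, 3 were lower in dorsal and 1 in medial mutant cortex (median -0.45 and -0.16), against 27.6% and 30.2% of all tested genes, so the medial count is near the share of all genes. Gfra4 fell by 0.67 ± 0.10 in dorsal and by 0.82 ± 0.10 in medial cortex (limma adjusted p = 5.65e-05 and 1.12e-05). Gfra1 and Gfra2 fell in dorsal cortex by 0.45 ± 0.13 and 0.38 ± 0.12 (adjusted p = 0.013 and 0.0188), and neither passed after quantile normalization or without mutant dorsal library 1 (-0.35 and -0.34). Of 13 tested relatives of Lrp2, 2 were higher and 7 lower in each region (median -0.24 in dorsal and -0.20 in medial cortex). After median-ratio rescaling these counts were 2 higher and 3 lower in dorsal and 3 higher and 1 lower in medial cortex, so the balance of this list depends on the scaling. Sorl1, a sorting receptor, rose by 1.15 ± 0.18 and 1.44 ± 0.19, Lrp8, a Reelin receptor, rose by 0.32 ± 0.07 and 0.40 ± 0.07, and the endocytic receptor Lrp1 fell by 0.74 ± 0.16 and 0.70 ± 0.16. Of 7 tested adaptors and partners of Lrp2, 0 were higher and 2 lower in dorsal and 0 higher and 1 lower in medial cortex (median -0.03 and -0.13). The dorsal count is near, and the medial count below, the share of all tested genes that fell, 27.6% and 30.2%. The Reelin adaptor Dab1 was at -0.75 ± 0.12 in dorsal and -0.71 ± 0.13 in medial cortex. Gipc1, an endocytic adaptor, changed by -0.12 ± 0.04 in dorsal cortex (adjusted p = 0.028), and missed the threshold after rescaling and without mutant dorsal library 2 (-0.07) or control dorsal library 2 (-0.11).

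By level, Cdon lay above 86.1% of tested genes in mutant dorsal, 91.2% in control dorsal, 90.0% in mutant medial and 93.9% in control medial cortex. Over the 19 libraries the genes most like Cdon were Plcxd2, Osbpl5 and Dgkz, with Pearson r of 0.973, 0.964 and 0.964 on the log2(TPM + 1) scale. For Boc they were Sfr1, Smchd1 and Plagl1 (0.915, 0.906 and 0.901) and for Gas1 they were Ide, Klhl21 and Plekhh1 (0.906, 0.905 and 0.9). For Lrp2 they were Sp5, Lect1 and Lmx1a (0.931, 0.923 and 0.922), and Lmx1a is itself one of the hem markers. Each r is a description across libraries that share genotype, region or title number, so group differences are part of it.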

How the data were processed

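Cortex RNA was sequenced as stranded total RNA, per the labels' protocols. The deposited table holds TPM values computed by the authors on mm10, per the submitters' processing notes. The sources used here give no aligner, quantifier or annotation, and depth is unknown, so no counting error is given. Genes reaching 1 TPM in 4 or more libraries (13520 of 47643, with 3 of the 4 members) were tested with limma 3.58.1 (R 4.3.3) on log2(TPM + 1), which understates changes of low genes. The fit had a mean per group over all 19 libraries, with trend and robust settings and Benjamini-Hochberg adjustment over all genes. It was tried on simulated data for mutant against control alone, not for the regional comparisons or the difference in effect. The simulated noise was independent between libraries, unlike that of same-numbered dorsal and medial libraries here. Lrp2, below the filter, was compared by exact permutation tests chosen after this was seen.

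Separate embryos are not stated in the labels, so each p-value measures library-to-library spread, which may be technical. Title numbers paired dorsal with medial libraries of a genotype (9 pairs, r from 0.549 to 0.795) and not mutants with controls (7 pairs, r from -0.436 to 0.138). The labels name the regions dorsal and medial, the extraction protocol medial or lateral. No batch is given. By sex-linked genes 3 of 6 control and 0 of 4 mutant title numbers were female, and a fit with sex as a term kept both falls of Cdon (-0.68 and -0.73). In that fit Boc was at 0.17 in dorsal (limma adjusted p = 0.196) and 0.07 in medial mutant cortex (adjusted p = 0.637).

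Members, gene lists and markers were chosen with earlier results of these data known. Named genes were the members, Smo, Gli1 and Ptch1, up to 3 genes per list and region with the smallest adjusted p below 0.05 in mutant against control, and the 3 genes most correlated with each member; Shh was named after its values were seen, as were single hem markers. A result of the receptor list is not reported here. Alternatives changed pseudocount, filter, scaling, fit, pairing and single libraries.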

Additional observations from a re-analysis of the deposited data

Results flagged for a closer look

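Of 16 groups of values (4 members in 4 groups), 2 held a library far from the others by Dixon's criterion, which chance gives in about 5% of groups. Both were mutant dorsal library 3. Cdon was at 113 TPM there, against 85.1 to 88.8 TPM in the other mutant dorsal libraries, still below the lowest control dorsal library at 133 TPM. Lrp2 was at 0.656 TPM there, against 0.0860 to 0.111 TPM in the other mutant dorsal libraries. Without this library the fall of Cdon in dorsal cortex was -0.71 on the log2 scale.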

How the results depend on the processing

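The falls of Cdon in both regions and its regional difference in controls kept direction and call under every alternative run. Cdon in medial against dorsal mutant cortex (0.40) missed the threshold with only the 2 groups compared (limma adjusted p = 0.0569), a fit that called 0 of 13519 genes. Boc in dorsal mutant cortex passed after median-ratio rescaling (0.31), quantile normalization (0.28), a replicate block on title number (0.26, though mutants and controls of a number did not deviate together), with only the 2 groups compared (0.22) and without the 3 hem-rich libraries (0.22). Gas1 in mutants turned sign after median-ratio rescaling (0.06 dorsal, 0.07 medial, 0.01 for the difference), quantile normalization (0.05 and 0.03) and without the hem-rich libraries (0.00058 medial, 0.03 for the difference). Its regional value of 0.28 in mutants missed the threshold with no filter, plain empirical Bayes, only the 2 groups and without the hem-rich libraries (adjusted p 0.0538 to 0.161), and the control value without the hem-rich libraries (0.25). Gfra2 in medial cortex turned to 0.02 and 0.10 after rescaling. The cause was not tested. Lrp2 in medial against dorsal controls was 0.723 TPM in the main test, 0.725 TPM within same-numbered pairs and 0.275 TPM without the hem-rich libraries. Within pairs the smallest exact p possible, 0.0625, lies above the threshold. Without the hem-rich libraries the exact p of 0.0238 was the smallest possible, and beside the p-values of the other comparisons it was adjusted to 0.0952. These p-values therefore say nothing on the stability of the call. The size of the difference did depend on the hem-rich libraries.

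Counts of called genes moved more. The difference in effect called 1 gene (Ccnd1), and 0 with no filter (839 at an unadjusted p below 0.05), plain empirical Bayes (463) and without the hem-rich libraries (307), but 49 and 16 with same-numbered libraries as a random or fixed replicate block. Medial against dorsal called 2545 genes in mutants, with 5283 and 4950 under those blocks and 0 with only the 2 groups (limma, 3643 unadjusted), and 4387 in controls, with 6614 under the random block and 2129 without the hem-rich libraries. The blocks changed no other call of a member.

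Leaving out single libraries gave, for Cdon, -0.71 to -0.58 in dorsal and -0.69 to -0.63 in medial mutants, -0.08 to 0.05 for the difference, and 0.36 to 0.49 and 0.41 to 0.47 for the region in mutants and controls. For Boc these were 0.16 to 0.29, 0.09 to 0.24, -0.16 to 0.02, -0.03 to 0.15 and 0.09 to 0.17. For Gas1 they were -0.16 to 0.03, -0.07 to 0.01, -0.06 to 0.13, 0.22 to 0.41 and 0.24 to 0.32, and for Gfra2 in medial mutants -0.12 to 0.11. For Lrp2 they were -0.0234 to 0.167 and -0.561 to -0.0224 TPM in mutants, and 0.0462 to 0.543 and 0.528 to 0.851 TPM for the region. Counts ran from 0 to 3 for the difference, and from 1136 (without mutant dorsal library 2; 1371 without 4 and 1309 without mutant medial library 3) to 3673 and 3355 to 4547 for the region in mutants and controls.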
